A study of Mus musculus with 12 samples.

Results

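miR-328-3p was followed through 12 small RNA libraries of murine serum. It appears as 1 row of the mouse tables (MIMAT0000565) and 1 row of the human tables (MIMAT0000752), which are 2 of the 1340 miRNA entries listed in the series. It was chosen because its counts differed between sera drawn before and after tumour cell injection. Its values in that comparison are therefore given as a description, without a test. Serum came from 3 female athymic NCr nude mice, 4 to 6 weeks old at the time of the operation and lacking mature T cells. Human SH-SY5Y cells, an established neuroblastoma line, were placed beneath the renal capsule, and blood was taken before and 2 weeks after the operation. RNA of each of the 6 sera was split into 2 aliquots, of which 1 was depleted of 5′ tRNA fragments with biotinylated DNA probes and streptavidin beads. This gives 4 groups of 3 libraries, and every group holds the same mice 1046, 1047 and 1069. All mice were operated on and received tumour cells between the draws. In these data tumour growth, the operation, the earlier blood draw and the time between the draws therefore cannot be told apart.

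miRNAs are short RNAs that guide Argonaute proteins to matching sites in messenger RNAs, mostly through a seed near their 5′ end, and lower the output of those messages. Serum holds miRNAs in vesicles and in protein complexes, released by blood cells and by tissues. miR-328-3p is known to target the drug efflux pump ABCG2, the hyaluronan receptor CD44 and the β-secretase BACE1, and to bind the RNA-binding protein hnRNP E2 as a decoy. In the mouse genome (GRCm38/mm10, GENCODE M21) the gene Mir328 lies on the minus strand of chromosome 8, at chr8:105308364-105308460. It is antisense to Elmo3, which runs on the plus strand from 105305601 to 105310760 and encodes an engulfment and cell motility protein. Of the 97 bases of the annotated hairpin, 85 fall in an Elmo3 intron and 12 overlap the start of an exon on the other strand, numbered 14 in transcript Elmo3-201.

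Depth differed strongly between the arms. Depleted libraries held 938706 to 2271549 mouse-annotated counts, and undepleted libraries 21235 to 97183. miR-328-3p was counted in all 12 libraries. In depleted libraries of sera drawn before injection, mouse 1046 gave 1305 counts, mouse 1047 gave 1675 and mouse 1069 gave 810. After injection the same mice gave 4168, 4561 and 7113 counts. In undepleted libraries the counts were 85, 67 and 15 before injection and 113, 121 and 148 after it. The value of every depleted library thus rests on at least 810 reads, whereas the value of mouse 1069 before injection without depletion rests on 15 reads.

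As a share of the mouse-annotated counts, miR-328-3p was a minor component. Before injection it made up 967.9, 919.9 and 862.9 CPM (counts of miR-328-3p scaled to a library total of 1000000 mouse-annotated counts) in the depleted libraries of mice 1046, 1047 and 1069. The 95% Wilson intervals of these shares, which cover counting error only, were 917 to 1022, 877 to 965 and 805 to 924 CPM. After injection the shares were 2339.9, 2619 and 3131 CPM, with intervals of 2270.1 to 2412, 2544 to 2696 and 3059.5 to 3205. The lowest depleted library after injection stood well above the highest one before it. In undepleted libraries the shares were 875, 744 and 706 CPM before injection and 1658, 2329 and 2993 CPM after it. Here too the groups did not overlap, although the interval of mouse 1069 before injection reached from 428 to 1165 CPM. The miRNA was chosen on this contrast, and how many other miRNAs separate the groups in this way was not counted. For comparison, the fits described below called 33 of 310 tested mouse miRNAs (10.6%) changed after injection in depleted libraries. In undepleted libraries they called 12 of 108 (11.1%). No call is given for miR-328-3p, because it was chosen on this contrast.

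**Figure D1:**
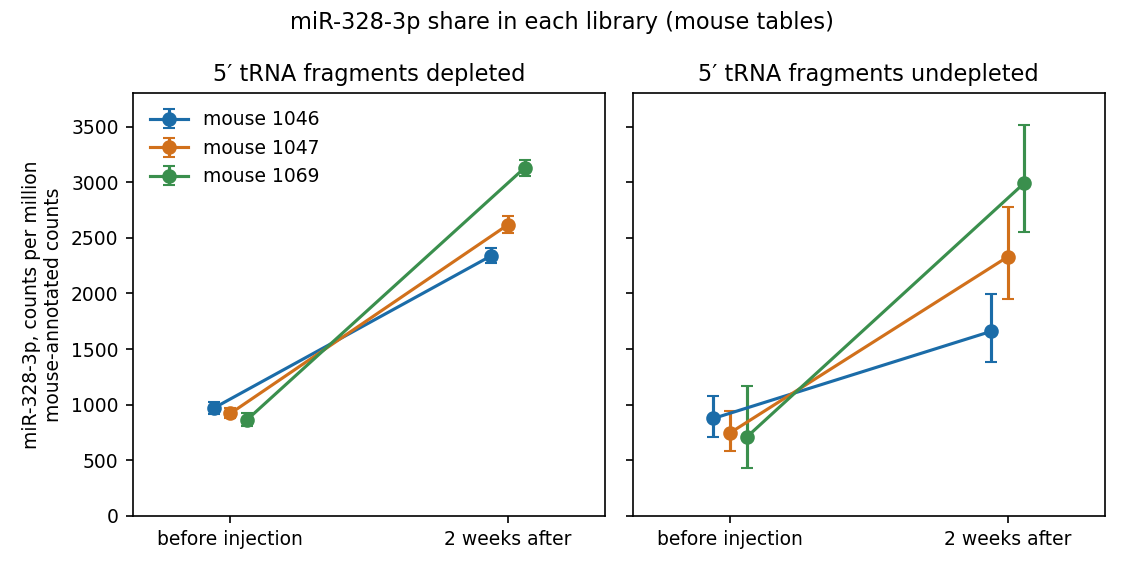
Share of miR-328-3p in CPM of the mouse-annotated counts (y axis) in each library, before and 2 weeks after injection (x axis), with 1 colour per mouse, a line joining the sera of a mouse, and 95% Wilson intervals as bars. Depleted libraries went from 863 to 968 CPM before injection to 2339.9 to 3131 CPM after it, and undepleted libraries from 706 to 875 CPM to 1658 to 2993 CPM, with wider bars.

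Ordered by mean share, the groups ran from undepleted before injection (775 ± 88 CPM, SD, n = 3) and depleted before injection (917 ± 53 CPM, SD, n = 3) to undepleted after injection (2327 ± 668 CPM, SD, n = 3) and depleted after injection (2697 ± 401 CPM, SD, n = 3). The groups before injection overlapped each other in range, as did the groups after injection. The only gap in this order lay between 968 CPM, the highest value before injection, and 1658 CPM, the lowest after it. In depleted libraries the coefficient of variation of the share between mice was 5.73% before injection, where counting alone gives 2.91% on average, and 14.9% after it, against 1.41% from counting. This difference in spread depended on the scaling, since the coefficient was 17.5% before and 15.5% after injection outside the 10 most abundant miRNAs, and 18.1% and 17.4% on DESeq2-normalised counts. In undepleted libraries before injection the coefficient of variation was 11.4%, under the 16.3% that counting gives on average, so differences between mice could not be resolved there.

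Among the miRNAs of a library, miR-328-3p moved up in rank. By count it stood in places 63, 65 and 78 of 546 to 563 listed mouse miRNAs in the depleted libraries before injection. After injection it stood in places 44, 42 and 37 of 592 to 614. In undepleted libraries its places were 59, 68 and 74 before and 50, 43 and 37 after injection. Mouse 1069 had the lowest place before injection and the highest after it in both arms.

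The change was next followed within each mouse. In depleted libraries the share after injection was 2.42 times that before it in mouse 1046 (95% interval from counting 2.27 to 2.57), 2.85 times in mouse 1047 (2.69 to 3.01) and 3.63 times in mouse 1069 (3.37 to 3.91). In undepleted libraries the ratios were 1.90 (1.42 to 2.54), 3.13 (2.30 to 4.28) and 4.24 (2.49 to 7.76). The order of the mice was the same in both arms, with mouse 1046 lowest and mouse 1069 highest. Since the arms split the RNA of 1 serum, this likeness is not a second observation of the mice. On the log2 scale the mean change in share was 1.55 ± 0.29 in depleted libraries (SD, n = 3) and 1.55 ± 0.59 in undepleted libraries (SD, n = 3). The difference between arms within a mouse, depleted minus undepleted, was 0.35, -0.14 and -0.22 for mice 1046, 1047 and 1069, and was not tested because the miRNA was chosen on these changes. These values are relative shares, and release into serum was not measured. In bulk serum, more cells releasing a miRNA and more miRNA released per cell cannot be told apart.

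To set the change beside those of the other miRNAs, DESeq2 was fitted to all mouse miRNAs of each arm, with time of draw as the only term. The normalised counts of miR-328-3p in depleted libraries, after division by DESeq2's size factors, were 1745, 1844 and 1291 before injection and 3345, 3774 and 4685 after it. The log2 fold change was 1.19 (standard error 0.26), a 2.29-fold higher level after injection. In undepleted libraries the normalised counts were 53.0, 48.1 and 34.6 before and 89.1, 125.6 and 161 after injection, with a log2 fold change of 1.28 (standard error 0.31). By fold change it held place 7 of the 310 miRNAs tested in depleted libraries and place 3 of the 108 tested in undepleted ones. Among those that averaged 50 or more normalised counts, it held place 6 of 213 and place 2 of 68. The median log2 fold change of all tested miRNAs was -0.09 in depleted and -0.06 in undepleted libraries. Leaving out mouse 1069 lowered the log2 fold change to 0.96 in depleted and 0.91 in undepleted libraries, below a 2-fold difference.

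**Figure D2:**
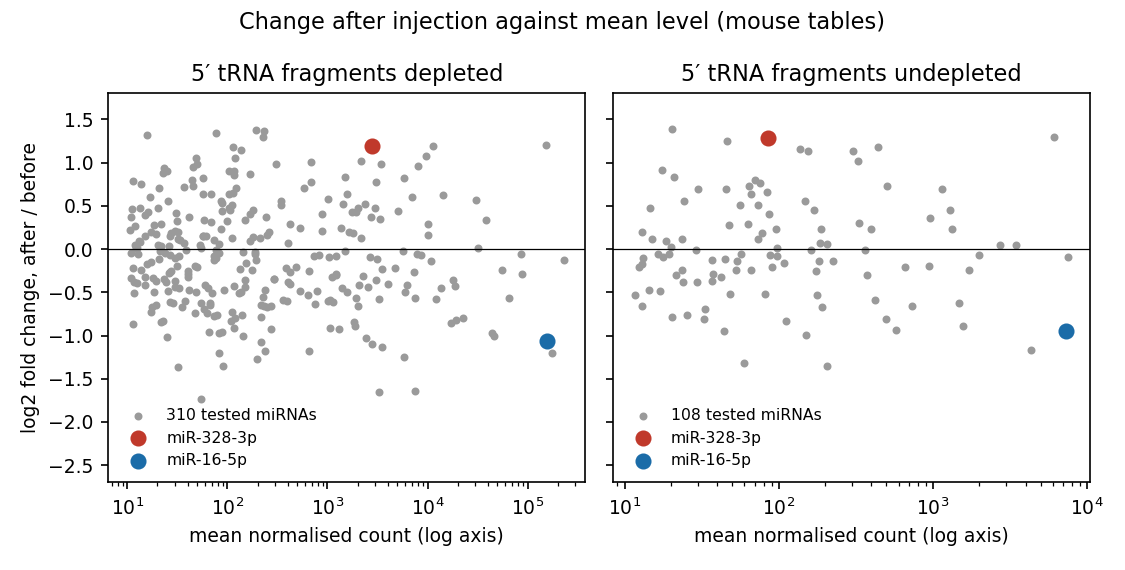
DESeq2 log2 fold change after against before injection (y axis) plotted against the mean normalised count (x axis, log scale) for all tested mouse miRNAs in depleted (left) and undepleted libraries (right). miR-328-3p (red) lies at 1.19 and 1.28 on the y axis, near the upper edge in both panels, and miR-16-5p (blue), at -1.07 and -0.95, is among the most abundant miRNAs near the lower edge.

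A share can change because other miRNAs of the same library change, so miR-328-3p was set against miR-16-5p, an abundant miRNA of red blood cells. This comparator was also the one chosen in the study for RT-qPCR checks of the depletion protocols. Its mature sequence (RefSeq, GRCm38.p6, genes Mir16-1 and Mir16-2) is shown with the seed, bases 2 to 8, in capitals, to identify the comparator.
mmu-miR-16-5p: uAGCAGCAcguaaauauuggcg
miR-16-5p took 10.8% to 12.6% of the mouse-annotated counts in depleted libraries before injection and 5.62% to 7.71% after it. In undepleted libraries it took 14.5% to 17.8% before and 7.14% to 10.4% after injection. In the same DESeq2 fits it fell after injection, with a log2 fold change of -1.07 (standard error 0.25, adjusted p = 0.000882) in depleted libraries. In undepleted libraries it was -0.95 (standard error 0.24, adjusted p = 0.000907 in DESeq2), which is under 2-fold.

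Read counts of miR-16-5p per count of miR-328-3p need no scaling between libraries. This ratio was 130.2, 136 and 126 in the depleted libraries of mice 1046, 1047 and 1069 before injection, and 33.0, 25.7 and 18.0 after it. In undepleted libraries it was 199.9, 239 and 205 before and 62.5, 40.3 and 23.9 after injection. The ratio was lower after injection in 3 of 3 mice in both arms, and it joins 2 changes, a lower share of miR-16-5p and a higher share of miR-328-3p.

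The most abundant miRNAs were then taken out of the denominator, a choice made after the data had been seen. The 10 mouse miRNAs with the highest mean share held 64.7% to 72.5% of the counts of a library. Relative to the remaining counts, miR-328-3p was 1.97, 2.31 and 3.75 times as high after injection in depleted libraries, and 1.64, 2.49 and 4.12 times as high in undepleted libraries. The mean log2 change on this scale was 1.36 ± 0.48 and 1.36 ± 0.66 (SD, n = 3 each), compared with 1.55 in both arms for the share of all counts. On this scale too the value was higher after injection in all 3 mice, the contrast on which the miRNA was chosen. The remaining counts still depend on one another, so the part played by changes in other miRNAs was not tested.

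**Figure D3:**
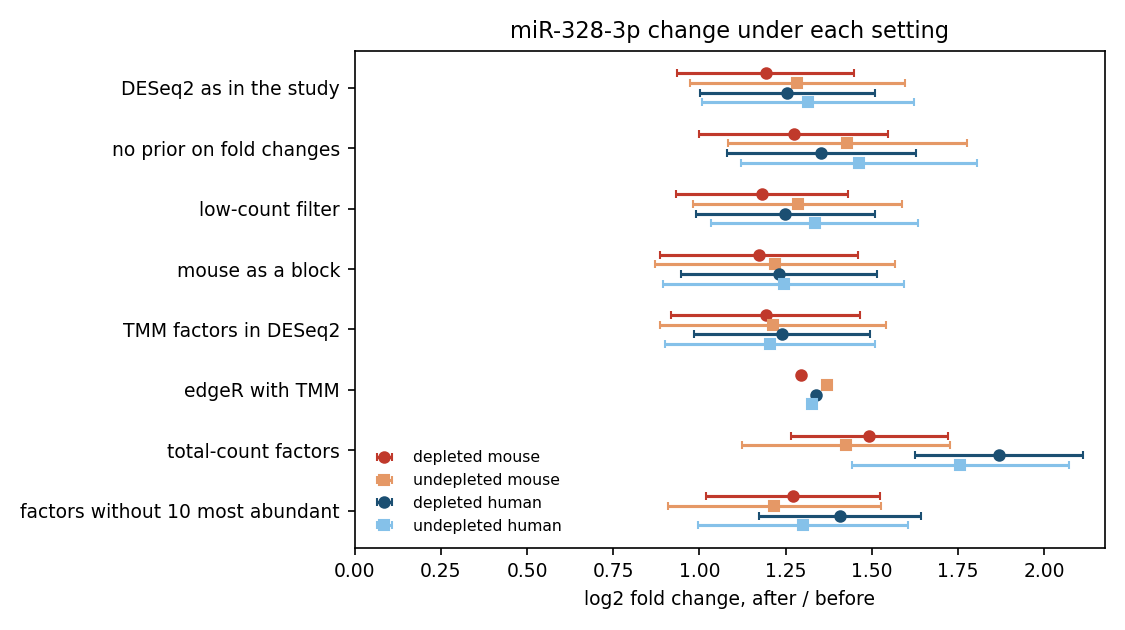
log2 fold change of miR-328-3p after against before injection (x axis) under each setting of the fit (y axis), for both arms and both tables, with standard errors as bars where the tool gives them. All values are above 0, most lie between 1.17 and 1.49, and the highest are those of the human tables with total-count factors, at 1.76 and 1.87.

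The human tables were compared next, to see whether they hold miR-328-3p reads beyond those of the mouse tables. The counts of MIMAT0000752 equalled those of MIMAT0000565 in all 6 undepleted libraries. In depleted libraries the tables differed by 12 to 23 counts, and the human count was the higher one in 5 of 6. The largest relative difference, 2.59%, belonged to mouse 1069 before injection, and after injection the differences were 0.32% to 0.48% of the mouse count. Summed over all libraries there were 20181 counts in the mouse and 20261 in the human tables, so both rows record largely the same reads and do not separate mouse from human miR-328-3p. In sera without a tumour the human row already held 1293, 1688 and 831 counts in depleted libraries.

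As a share of human-annotated counts, miR-328-3p made up 498, 438 and 480.4 CPM in depleted libraries before injection and 1491, 1692 and 2247 CPM after it. The within-mouse ratios were 3.00, 3.86 and 4.68, larger than in the mouse tables, where the numerator was nearly the same. The denominators differed, with 1729906 to 3854909 human-annotated counts per depleted library, of which the 10 most abundant miRNAs held 80.4% to 86.0% before and 76.9% to 79.0% after injection. With DESeq2 size factors the human row had a log2 fold change of 1.25 in depleted libraries (standard error 0.25), where the fit called 7.12% of tested miRNAs. The value in undepleted libraries was 1.32 (standard error 0.31), with 10.1% of tested miRNAs called. With total counts as size factors the depleted value was 1.87, which is 1.53 times as large in fold as the value with DESeq2 size factors.

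The difference between depleted and undepleted aliquots was not the contrast on which the miRNA was chosen and was tested, although the choice was made with earlier results from both kinds of aliquot known. The depleted aliquot of a serum held between 15.4 and 54.0 times as many miR-328-3p counts as the undepleted one, along with a larger total of miRNA counts. Its share of the mouse-annotated counts was slightly higher in the depleted aliquot of all 6 sera. A share also depends on the other miRNAs of the aliquot, and how many of them were higher in all 6 sera was not counted. Whether the difference is particular to miR-328-3p was therefore not tested. The ratio of depleted to undepleted share was 1.11, 1.24 and 1.22 in mice 1046, 1047 and 1069 before injection and 1.41, 1.12 and 1.05 after it. The mean ratio was 1.19 (log2 ratio 0.25 ± 0.15, SD, n = 6 sera). The exact two-sided permutation of signs gave p = 0.03125, which no set of 6 pairs can undercut. For the human tables, whose mean log2 ratio was 0.19 ± 0.11 (SD, n = 6), the exact permutation p was also 0.03125, and adjusted over these 2 tests both p-values stay at 0.03125. Both tables hold largely the same miR-328-3p reads, so the second test is not a separate observation. The 6 sera come from 3 mice, so the pairs are not independent. With the 2 sera of each mouse averaged, the log2 ratio was 0.25 ± 0.07 (SD, n = 3), higher in 3 of 3 mice, and the exact permutation p was 0.25, the smallest that 3 mice allow. Within single sera the difference was close to counting error. The 95% interval of the ratio excluded 1 in only 1 of 6 sera, that of mouse 1046 after injection (1.17 to 1.72).

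**Figure D4:**
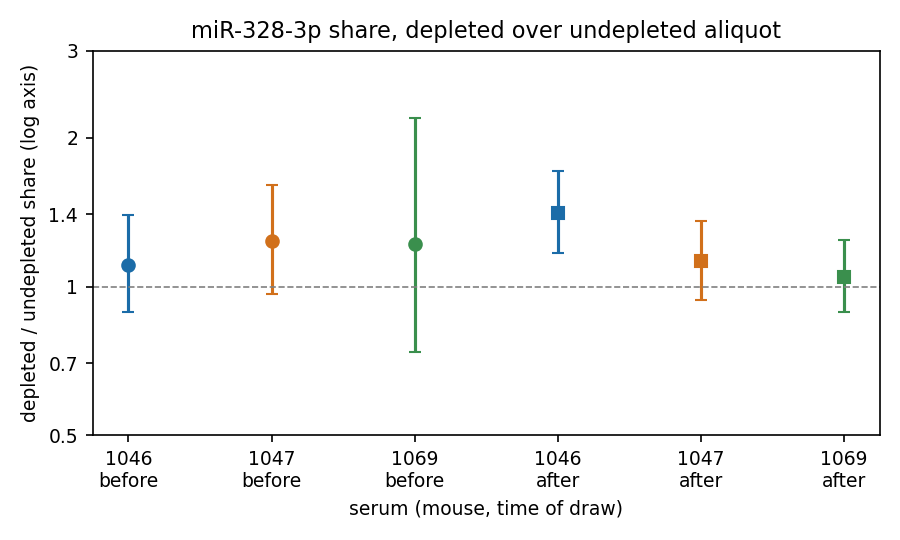
Ratio of the miR-328-3p share in the depleted over the undepleted aliquot (y axis, log scale) of each serum, named by mouse and time of draw (x axis), with 95% intervals from counting. All 6 ratios lie above the dashed line at 1, between 1.05 and 1.41, and the interval of mouse 1046 after injection is the one that excludes 1.

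Across all mouse miRNAs, the fit of depletion with time of draw as a covariate gave miR-328-3p a log2 fold change of 0.09 ± 0.18 (standard error), with an adjusted p of 0.868 in DESeq2. This fit did not pair the 2 aliquots of a serum. Its 95% interval for the difference, -0.27 to 0.45, excludes a 2-fold change in either direction but not a difference of the size seen in the shares. In the same fit 32 of 383 tested miRNAs (8.36%) were called. The human row gave 0.12 ± 0.18 (standard error) with an adjusted p of 0.819 in DESeq2, and 23 of 414 miRNAs (5.56%) were called. The fit and the test of shares differ in scaling, in pairing and in the test itself. A DESeq2 fit with serum as a block, which pairs the aliquots, gave 0.11 ± 0.09 (standard error, adjusted p = 0.679) in the mouse tables. In the human tables it gave 0.15 ± 0.10 (standard error, adjusted p = 0.731). Without pairing but with total-count size factors, DESeq2 did not call miR-328-3p either (log2 fold change 0.21, adjusted p = 0.437 in the mouse tables and 0.18, adjusted p = 0.598 in the human tables). With total-count size factors the median log2 fold change of all tested miRNAs was 0.08 in the mouse and 0.09 in the human tables. In the fit with DESeq2's own size factors miR-16-5p was lower in depleted libraries by a log2 fold change of -0.56 ± 0.16 (standard error, adjusted p = 0.00525 in DESeq2), less than 2-fold.

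Finally, the miRNAs with the most similar pattern were sought among the 84 other mouse miRNAs that reached 10 counts in each of the 12 libraries, by Pearson's r of log2(normalised count + 1) over the 12 libraries. These libraries share sera and groups, so r is given as a description only. The 5 most similar miRNAs had r between 0.938 and 0.975, and 8 of the 84 exceeded 0.9. Within the 6 depleted libraries the same 5 had r of 0.957 to 0.999 and within the 6 undepleted ones 0.960 to 0.976. The 5 were picked by r over these same libraries, so r within each arm is not a separate observation of their likeness. All 5 had higher mean normalised counts after injection in both arms. Their r therefore also carries the contrast on which the miRNA under study was chosen. The tables give accessions without names, so only the first 2 are listed. MIMAT0000140 (r = 0.975) had mean normalised counts of 1023 before and 2531 after injection in depleted libraries, and of 979 and 2423 in undepleted ones. MIMAT0003454 (r = 0.958) had 691 and 1421 in depleted and 500.2 and 1245 in undepleted libraries. For miR-16-5p r was -0.75, and 45 of the 84 miRNAs had a negative r.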

How the data were processed

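Small RNA libraries (TruSeq, 15 PCR cycles) were made from RNA of 50 μl of serum. The deposited values are raw read counts per mature miRNA, in a mouse and a human table per library. Per the paper's methods and the submitters' processing notes, the authors trimmed adaptors with cutadapt 1.8.1, filtered reads on quality, mapped them with Bowtie 1.1.2 without mismatches and assigned them by miRBase coordinates (GRCm38/mm10, GRCh37/hg19). The treatment of reads with several loci is not given in the sources used here. Unlisted miRNAs were taken as 0. The same read can be counted in both tables.

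DESeq2 1.42.0 (R 4.3.3), the study's tool, was fitted per table and arm with the Wald test, size factors by median of ratios and a zero-centred prior on fold changes. The depletion fits used all 12 libraries with time as a covariate. Calls needed an adjusted p under 0.05 and at least a 2-fold change. The scripts were tested on simulated data. Alternatives were edgeR 4.0.16 and other scalings, filters, blocks and left-out libraries. Shares and exact tests used Python 3.11.15 and SciPy 1.17.1. Mice link the groups by their labels. Deviations from group means correlated with r between 0.598 and 0.902 for the aliquots of a serum, and between -0.335 and 0.025 for the sera of a mouse. miR-328-3p, the lists and the tests were chosen with earlier results of these data known. Named were miR-328-3p, miR-16-5p and the most similar miRNAs by r, of which the first 2 of 5 are printed. Lists of cell type miRNAs could not be used because the sources pair only miR-16-5p with an accession.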

Additional observations from a re-analysis of the deposited data

Results flagged for a closer look

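In the human tables, the depleted-to-undepleted ratio of the miR-328-3p share stood apart for 1 of the 6 sera, that of mouse 1046 after injection. Its ratio was 1.33, and the other 5 lay between 1.07 and 1.13. The gap to the nearest serum was 0.772 of the whole range on the log2 scale, above Dixon's 95% critical value of 0.625. Chance alone raises this flag in about 1 in 20 groups. In the mouse tables the same serum was also the highest, but the gap, 0.443 of the range, was under the critical value.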

How the results depend on the processing

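The change of miR-328-3p after injection was above 0 under all 16 alternatives in each arm and table. In the fits that kept all libraries, the log2 fold change ranged from 1.17 to 1.49 in depleted and from 1.21 to 1.43 in undepleted mouse libraries. Total-count size factors moved the depleted human value from 1.25 to 1.87 and shifted the median of all tested miRNAs from 0.00 to 0.39. With the mouse as a replicate block the log2 fold changes were 1.17 and 1.22 in the mouse and 1.23 and 1.24 in the human tables, and the depletion effect with a replicate block for serum was 0.11 and 0.15. The block did not change the call of the depletion effect. The depletion effect was not called under any alternative, with adjusted p-values of 0.270 to 0.955 in the mouse and 0.502 to 0.991 in the human tables. TMM factors in DESeq2 shifted the median of that fit in the mouse tables from -0.04 to 0.20. With edgeR and TMM, where 874 mouse and 466 human miRNAs were tested, the medians were 0.95 and 0.59. The log2 fold changes of miR-328-3p in that setting, 0.35 and 0.28, lay below them. For the share, leaving out a mouse gave mean log2 ratios of 0.21 to 0.28 with p = 0.125 in the exact test, the smallest value 4 sera allow, and leaving out the shallowest serum gave 0.24 with p = 0.0625, the smallest for 5. Averaging the 2 sera of each mouse, chosen after seeing the data, gave 0.25 with p = 0.25 in the exact test, the smallest for 3 mice. The share outside the 10 most abundant miRNAs, also chosen after seeing the data, gave 0.22 ± 0.12 (SD, n = 6) and was higher in 6 of 6 sera. Its p in the exact test was 0.03125, the smallest for 6 sera, which again come from 3 mice. The number of called mouse miRNAs in the depletion fit was 32 of 383 tested with all mice. It was 19 of 798 without mouse 1046 and at most 33 of 417 without another mouse. In the depleted fit of the change after injection, with a mouse or library left out, it ranged from 11 of 285 (without mouse 1047) to 37 of 311. There, leaving out mouse 1069 gave 19 of 225, and leaving out only its depleted library after injection gave 12 of 331. In the undepleted fit it ranged from 1 of 395 (without mouse 1047) to 15 of 118, with 7 of 99 without mouse 1069. The number of miRNAs tested thus changed along with what was left out. Alternatives that leave out the erythroid list were not run, because only 1 of its members could be identified. Depth limits the undepleted values, above all the 15 counts of mouse 1069 before injection.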
